A study of Rattus norvegicus with 6 samples.

Results

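The 200 circular RNA probes that gave the brightest spots in saline-treated rat lung are described here. They were taken from 14145 circRNA probes of 1 microarray design by the mean of log2 processed signal (the scanner software's background-subtracted spot brightness) over the 3 saline arrays, and make up 1.41% of the probes. The saline values therefore chose the members, and every saline level, rank and share of them is given as a description without a test. A spot's brightness depends on the probe as well as on how much RNA binds it and is not per length, so a rank here orders signals on an array and not copies of RNA in the lung. The files used here pair the probes with no host gene, position or sequence, and the circRNAs are named by their array identifiers.

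All 6 samples were lung tissue of male rats labelled as 6 weeks of age, with no strain given. The MCT group (3 samples) had received 1 intraperitoneal dose of 60 mg per kg monocrotaline (MCT), a plant alkaloid used to set up pulmonary arterial hypertension in rats, and the saline group (3 samples) an equivalent volume of vehicle, given as saline or as solvent in the labels. Lungs were perfused with phosphate-buffered saline and collected 28 days after the injection, and each sample was hybridised to 1 array. The labels number the samples of a group without saying that they came from separate animals, so that the p-values measure the spread between these samples, which may be technical.

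Circular RNAs arise when the splicing machinery joins the end of an exon to the start of the same or an earlier exon. The ring has no free ends, resists exonucleases and can outlast the linear transcript of its host gene, and in most tissues a small number of circles account for much of the circular RNA. Whole lung mixes epithelium, endothelium, muscle, fibroblasts and blood-derived cells, so that fewer cells of a type and less circRNA per cell cannot be told apart in these samples. None of the 20 marker genes listed for lung and other cell types had a probe that could be named, and the tissue was not checked by markers.

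The arrays differed in brightness, and 3 of them stand apart in what follows. The 75th percentile of the signal was 75.6 to 94.5 fluorescence units on the saline arrays and 95.2 on MCT 2, but 41.4 on MCT 1 and 32.3 on MCT 3. Saline 3 differed from the other saline arrays among the brightest probes. The headers place the saline arrays and MCT 1 on slide 1 and the other MCT arrays on slide 2. All 200 members lay well above background on each of the 6 arrays, and none was saturated or marked as an outlier. Each circRNA has 1 spot per array. Probes of linear transcripts with 10 spots had a median coefficient of variation between spots of 5.26% to 6.78% on 5 arrays and 11.9% on MCT 1, which measures spot error but not error from RNA preparation or labelling.

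The 200 members carried about as much signal as all other circRNA probes together. Their share of the summed circRNA signal was 50.4% on saline 1, 53.3% on saline 2 and 45.5% on saline 3. On the MCT arrays it was 51.1%, 47.4% and 61.7% for MCT 1, MCT 2 and MCT 3. The groups overlapped, with MCT 1 and MCT 2 inside the saline range and MCT 3 above it. The group means were 49.7% ± 3.94 (SD, n = 3) and 53.4% ± 7.43 (SD, n = 3), and the difference of 3.67 percentage points was smaller than the spread between the MCT arrays. It was -0.49 points without MCT 3, 0.726 without saline 3 and 1.32 within slide 1, where MCT 1 is the MCT array. From median spot signals without background subtraction it was 1.02 points. In the authors' processed table, with the members chosen again there, it was -4.47 points. The columns of that table have nearly the same spread of values. Members chosen on saline can then hardly hold a larger share on MCT arrays, and nothing is read from that sign.

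In absolute signal the members were dimmer on MCT 1 than on any other array. Their summed signal, in units of 1e+06, was 1.55, 1.39 and 1.08 on saline 1 to 3, and 0.721, 1.23 and 1.08 on MCT 1 to 3. The remaining probes summed to 1.52, 1.22 and 1.30 for saline 1 to 3, and to 0.691, 1.36 and 0.667 for MCT 1 to 3. On MCT 3 the members had nearly the same sum as on saline 3 and the remaining probes a lower one, while on MCT 1 both sums were low.

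**Figure D1:**
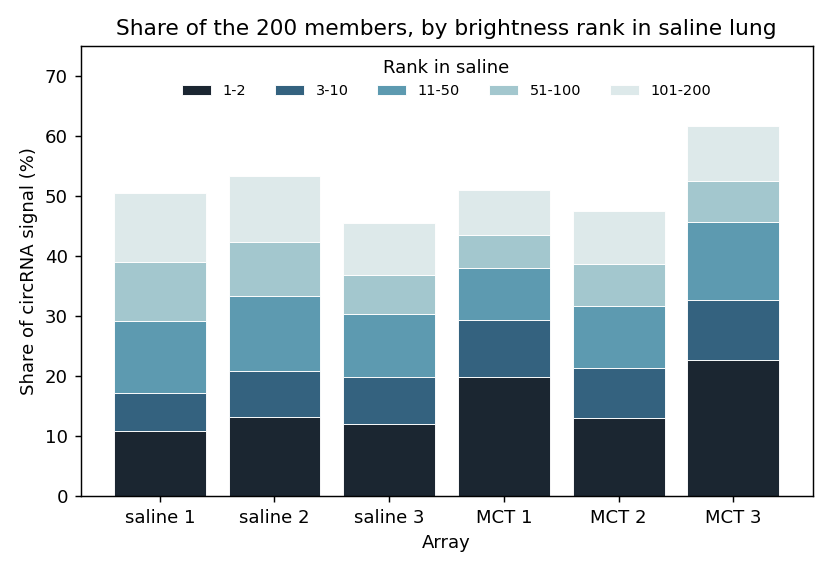
Stacked bars show the share (%) of each array's summed circRNA signal held by the 200 members, split by their brightness rank in saline lung. The segment of ranks 1 to 2 is tallest on MCT 1 and MCT 3 (19.9% and 22.6%, against 10.9% to 13.2% on the saline arrays), while the segment of ranks 51 to 100 is 5.53% to 7.07% on the MCT arrays and 6.52% to 9.92% on the saline arrays.

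Within the members, the share lay further toward the very brightest probes on MCT 1 and MCT 3. Ranks 1 to 10 held 17.2%, 20.9% and 19.8% of the signal on the saline arrays and 29.3%, 21.4% and 32.6% on the MCT arrays. All 3 MCT arrays were above the saline arrays, MCT 2 by a narrow margin over saline 2. Ranks 11 to 50 held 10.5% to 12.5% in saline and 8.70% to 13.0% in MCT lungs, ranks 51 to 100 held 6.52% to 9.92% and 5.53% to 7.07%, and the remaining 100 members held 8.598% to 11.4% and 7.48% to 9.29%. These 3 tiers overlapped between the groups.

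The members chosen on saline arrays are only in part the 200 brightest probes of the MCT arrays. The concentration of signal was therefore also measured with each array choosing its own 200 brightest probes. These held 50.7%, 53.7% and 46.2% of the signal on saline 1 to 3, and 59.4%, 49.2% and 67.4% on MCT 1 to 3. The mean difference was 8.40 percentage points, with MCT 2 inside the saline range (exact two-sided permutation test, p = 0.3, n = 3 against 3, smallest possible p 0.1). To reach 50% of the circRNA signal took 192, 159 and 266 probes on the saline arrays and 81, 214 and 49 on the MCT arrays. The 2 arrays with the most concentrated signal were the 2 dim ones, on which 63.1% and 55.1% of circRNA probes lay well above background, against 78.7% to 84.5% on the other 4. The part of array brightness in this difference was not tested. In the authors' table, whose columns have medians of 6.06 to 6.08 and 95th percentiles of 9.36 to 9.40 on the log2 scale and so nearly the same spread of values, the difference was -0.15 points. From median spot signals without background subtraction it was 4.92 points (exact permutation p = 0.4).

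**Figure D2:**
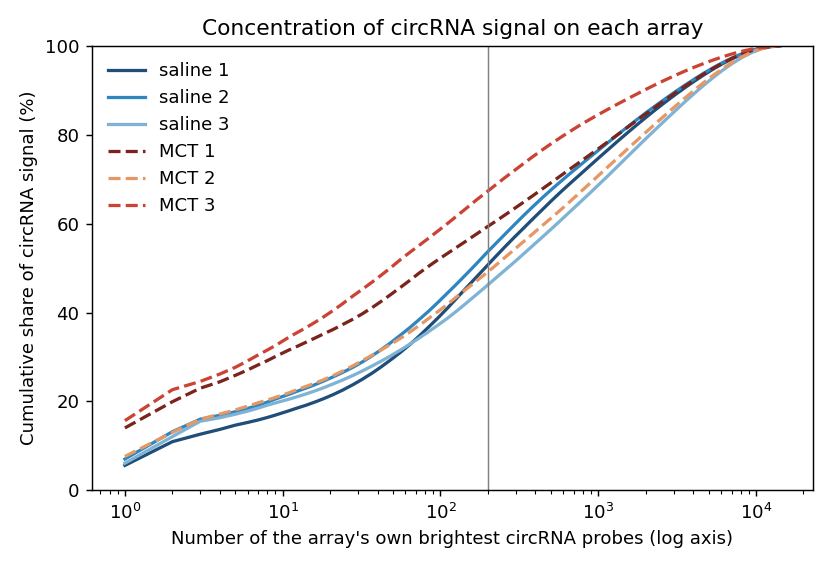
Lines show, for each array, the cumulative share (%) of circRNA signal against the number of its own brightest probes (log axis), with a vertical line at 200. Solid lines are saline and dashed lines MCT arrays; at 200 probes MCT 3 stands at 67.4% and MCT 1 at 59.4%, while MCT 2, at 49.2%, lies among the saline arrays (46.2% to 53.7%).

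The brightest circRNA probe of the saline arrays was not the brightest of the MCT arrays. ASCRPR013743 held rank 1 on all 3 saline arrays, at 171433, 183981 and 144860 units. ASCRPR003948 held rank 2 on these arrays, at 163721, 160820 and 142672 units. On all 3 MCT arrays the order was the opposite: ASCRPR003948 was first, at 198019, 196681 and 273035 units, and ASCRPR013743 second, at 83342, 139856 and 121462 units. For each of these circRNAs the signals of the groups did not overlap, one lying above and the other below saline on all 3 MCT arrays. The signal of ASCRPR003948 divided by that of ASCRPR013743, a ratio that no division of an array by 1 factor changes, though quantile normalization does, was 0.955, 0.874 and 0.985 on the saline arrays and 2.38, 1.41 and 2.25 on the MCT arrays. The ratio shows that these 2 probes changed unequally, and not which of them changed. It was singled out after its values were seen and is given without a test.

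The direction of ASCRPR013743 depended on the scaling. On the scale used for testing, which sets the 75th percentile of each array to 0, its MCT mean was above its saline mean by 0.24 log2 units, while without scaling the difference was -0.56. ASCRPR003948 was higher in MCT on both scales, by 1.30 ± 0.49 (SE; limma adjusted p = 0.37) and by 0.50. Its scaled levels were 10.77, 11.05 and 10.56 on the saline arrays and 12.22, 11.01 and 13.04 on the MCT arrays, so that MCT 2 lay below saline 2. As shares of the array's circRNA signal, ASCRPR003948 stood at 5.34%, 6.15% and 5.99% in saline and 14.0%, 7.61% and 15.7% in MCT lungs, without overlap, and ASCRPR013743 at 5.59%, 7.04% and 6.08% against 5.90%, 5.41% and 6.97%, with overlap.

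Most of the other circRNAs of the leading 10 kept close to their places. ASCRPR011276 had rank 3 on 5 arrays and rank 4 on MCT 3, with 51417, 73266 and 82329 units in saline and 42777, 76463 and 29190 units in MCT lungs. ASCRPR004513 ranked 3 to 6 on the 6 arrays, ASCRPR001036 ranked 5 to 9 and ASCRPR007438 ranked 5 to 7. ASCRPR009250 ranked 6 to 8 on 5 arrays and 20 on MCT 1, where its signal was 5227 units against 16822 to 23370 elsewhere. ASCRPR009859 ranked 7 to 14 and ASCRPR005480 ranked 8 to 12. ASCRPR001903 was the least steady, at ranks 36, 6 and 13 in saline and 7, 11 and 31 in MCT lungs. All 10 had higher means in MCT on the tested scale, with a median log2 difference of 0.74 and differences from 0.23 to 1.30, and none passed (lowest limma adjusted p = 0.37). The median was 0.33 without MCT 3. Without scaling their median difference was -0.06, with quantile normalization -0.03, and in the authors' table -0.09.

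Among themselves the saline arrays agreed on most of the members. Of the 200, 187 were among the 200 brightest probes of saline 1 itself, 184 of saline 2 and 169 of saline 3, and 149 were so on all 3 arrays. All members stayed within rank 352 on every saline array, and a member's highest and lowest rank lay a median of 52.5 places apart. The highest saline signal of a member was a median of 1.86 times its lowest. Because these arrays had a part in choosing the members, each was also held out of the choice. When 200 probes were chosen on the other saline arrays, 176 of them were among the 200 brightest of saline 1, 177 of saline 2 and 158 of saline 3. They held 49.8%, 52.9% and 44.7% of the signal on the held-out array, close to the shares above.

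Saline 3 ordered the members differently from saline 1 and saline 2. Spearman's rho over the 200 members, a description across probes that share an array and were chosen for a narrow range of brightness, was 0.85 between saline 1 and saline 2, 0.63 between saline 1 and saline 3 and 0.66 between saline 2 and saline 3. With MCT 2, saline 3 had 0.84. MCT 1 correlated at 0.21 and 0.18 with saline 1 and saline 2 but at 0.64 with saline 3, and the MCT arrays correlated with each other at 0.77 to 0.85. Over all 14145 circRNA probes, which span the full range of brightness, the same coefficients ran from 0.87 to 0.97. The lowest of them was that between saline 3 and MCT 3. Members chosen on saline 1 and saline 2 had a median log2 level on saline 3 that was lower by 0.87 than on the arrays that chose them, against a median of 0.07 in the other direction for all tested circRNAs. In the corresponding choices the median was 0.35 higher on saline 1 and 0.44 higher on saline 2. The spread between arrays was wider for members than for circRNAs in general: the median SD of scaled log2 levels was 0.50 against 0.33 in saline and 0.97 against 0.54 in MCT lungs.

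On the MCT arrays fewer members were among the leading 200. MCT 1 kept 111, MCT 2 kept 153 and MCT 3 kept 125, all below the 169 to 187 of the saline arrays, and 91 were among the 200 brightest on all 3 MCT arrays. The groups did not overlap, also when a saline array was held out of the choice: with saline 3 held out, the counts were 158 on saline 3 against 100, 143 and 122 on the MCT arrays, and with saline 1 held out 176 against 116, 158 and 126. In the authors' table the mean share of members kept differed by -24.7 percentage points, MCT minus saline, beside -25.2 points here. Of the members, 41 lay outside the leading 200 of every MCT array.

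The ranks that members moved to differed between the MCT arrays. The lowest rank of any member was 589 on MCT 2 and 605 on MCT 3, but 3315 on MCT 1, where 62 members lay beyond rank 400 and 32 beyond rank 1000. On MCT 2 and MCT 3, 7 and 15 lay beyond rank 400 and none beyond rank 1000. Of the members, 112 (56%) ranked lower on MCT 1 than on any saline array and 43 (21.5%) ranked higher, beside 30.5% and 35.4% of all circRNA probes. For MCT 2 these numbers were 86 (43%) and 46 (23%), beside 20.4% and 30.5%, and for MCT 3 they were 116 (58%) and 50 (25%), beside 37.6% and 35.7%. The saline ranks chose the members, which favours lower ranks elsewhere, and nothing is read from these counts. The members' unscaled signals spread widely between MCT arrays, the highest being a median of 4.24 times the lowest, against 1.86 times in saline. Differences in array brightness enter these folds. On the scaled levels the members' median SD was 0.97 in MCT lungs against 0.50 in saline.

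**Figure D3:**
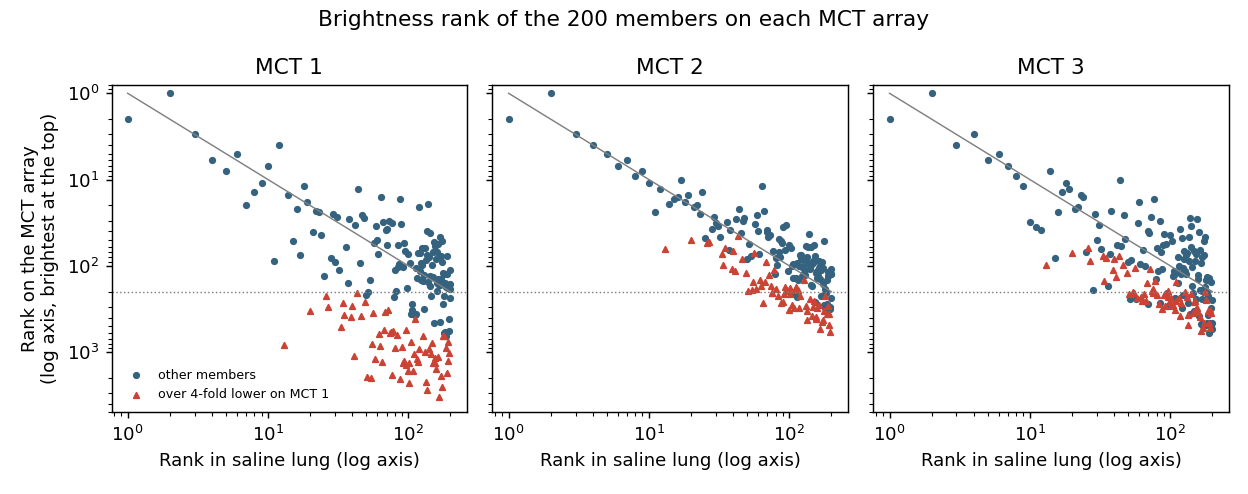
Points show the 200 members by their rank in saline lung (x axis, log) and on each MCT array (y axis, log, brightest at the top); the diagonal marks equal rank and the dotted line rank 200. Red triangles are the 68 members more than 4-fold lower on MCT 1 than the saline mean: none of them is among the 200 brightest of MCT 1, while 34 are on MCT 2 and 23 on MCT 3.

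Of the 89 members outside the leading 200 of MCT 1, 68 were low there by a wide margin. On the scaled levels these 68 were more than 4-fold below their saline mean on MCT 1, against 3.75% of all tested circRNAs. The set was picked by its values on MCT 1 and is described without a test. None of it belonged to the leading 10, the brightest ranked 13 in saline, and 13 fell in ranks 11 to 50, 24 in ranks 51 to 100 and 31 among the remaining 100. The median signal of the 68 was 5461, 4563 and 2148 units on saline 1 to 3, and 172, 1626 and 919 units on MCT 1 to 3. On MCT 1 their signals ran from 44.9 to 701 units, and all were well above background.

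These 68 circRNAs were low on saline 3 as well. All 68 had a lower scaled level on saline 3 than on saline 1 and saline 2, as did 95 of the other 132 members and 35.1% of all tested circRNAs. On MCT 2 all 68 did, beside 64 of the 132 and 31.1% of all tested, and on MCT 3 65 did, beside 32 of the 132 and 48.0% of all tested. Saline 1 and saline 2 had a part in choosing the members, and the low levels on MCT 1 are what chose the 68. Against the mean of saline 1 and saline 2, their median log2 difference was -1.37 on saline 3, -3.61 on MCT 1, -1.78 on MCT 2 and -1.05 on MCT 3. On the scaled levels the groups overlapped through saline 3 for most of the 68. Without scaling the medians were -1.20 on saline 3, -1.61 on MCT 2 and -2.43 on MCT 3, which puts saline 3 above both. By the scaled levels, 10 of the 68 were lower on every MCT array than on every saline array, beside 7.07% of all tested circRNAs. The rules that chose the 68 favour this pattern, and nothing is read from the count. Together they held 13.1%, 12.9% and 7.09% of the circRNA signal on the saline arrays and 1.08%, 5.15% and 4.39% on the MCT arrays. The other 132 members held 37.4%, 40.4% and 38.4% in saline and 49.97%, 42.3% and 57.3% in MCT lungs. Their median log2 difference from saline 1 and saline 2 was -0.59 on saline 3, -0.02 on MCT 1, -0.14 on MCT 2 and 0.61 on MCT 3.

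Saline 3, where the 68 were low, had a 75th percentile of 94.5 units, beside 93.9 for saline 1 and 75.6 for saline 2. Their median difference from saline 1 and saline 2 was below 0 on saline 3, MCT 2 and MCT 3 under all 5 scalings tried. On saline 3, 60 to 68 of the 68 lay below saline 1 and saline 2, depending on the scaling. The order of MCT 2 and MCT 3 depended on the scaling, since without it the medians were -1.61 and -2.43. By the authors' table, 61 of the 68 were more than 4-fold below saline on MCT 1, with medians against saline 1 and saline 2 of -0.59 on saline 3, -3.11 on MCT 1, -1.11 on MCT 2 and -1.24 on MCT 3. For the other 132 the sign of these medians changed with the scaling: on saline 3 it was 0.15 in the authors' table, and on MCT 3 it was -0.78 without scaling. The part of array brightness, cell makeup, RNA quality or labelling in these levels was not tested.

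**Figure D4:**
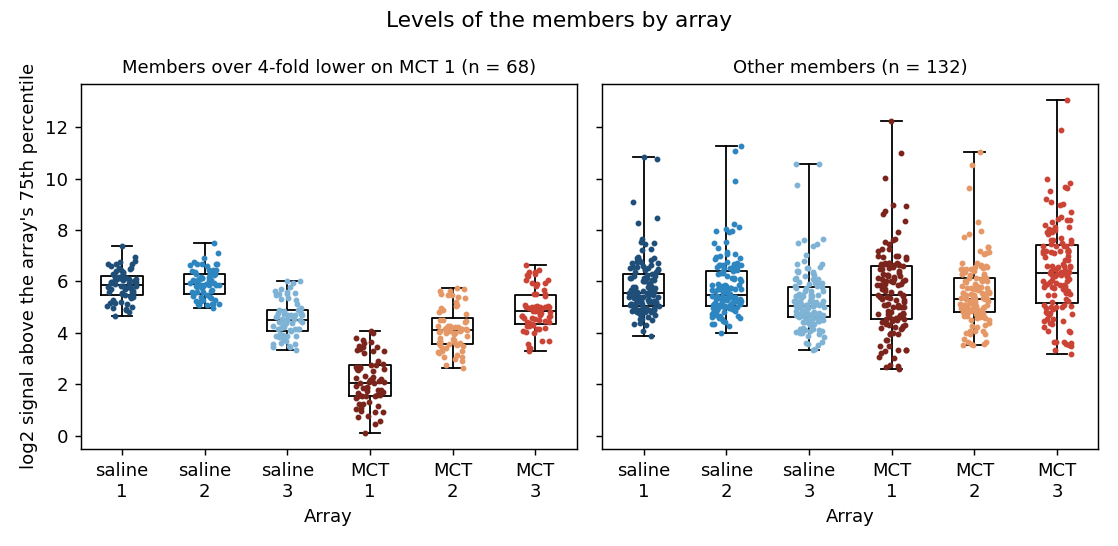
Points show members' log2 signals above each array's 75th percentile; boxes span the quartiles with the median as a line, and whiskers reach the lowest and highest member. The 68 members picked for low values on MCT 1 (left) also have lower medians on saline 3, MCT 2 and MCT 3 than on saline 1 and saline 2, while the other 132 (right) have medians of -0.59 to 0.61 relative to saline 1 and saline 2.

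In the test of MCT against saline across all 11280 circRNAs that could be tested, no member passed an adjusted p of 0.05 in either direction (limma, 3 against 3 arrays; lowest adjusted p of a member 0.32). Over all tested circRNAs 0% were called higher and 0.0177% lower, and 69 members had an unadjusted p below 0.05, where 11.5% of all tested did. The median log2 difference was -0.38 over the members and -0.04 over all tested circRNAs. Of the members, 80 (40%) were higher and 120 lower, beside 47.1% higher among all tested circRNAs. The saline values that chose the members favour lower levels in MCT, and nothing is read from these counts. The members' median was -0.23 without MCT 1 and -0.66 with slide as a block. For members chosen without saline 3, the median was -0.16 in a fit of the MCT arrays against saline 3 alone. Every difference is relative to the scaling, without which the medians were -1.18 and -0.84. All 3 scaled MCT values lay below all 3 scaled saline values for 14 members, or 7%, against 7.07% of all tested circRNAs. They lay above them for 3 members, or 1.5%, against 7.61%.

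By a looser criterion, a fold of 1.5 or more with an unadjusted limma p below 0.05, 58 members (29%) were lower and 11 (5.5%) higher in MCT, beside 6.64% and 4.9% of all tested circRNAs. The rule that chose the members used the same saline values, and nothing is read from these counts alone. In fits of the MCT arrays against the held-out saline array, in which that array is assumed to vary as the MCT arrays do, 40 of the 200 members chosen without saline 1 were lower (background 4.04%) and 3 higher (background 1.44%). Of those chosen without saline 2, 46 were lower (background 4.03%) and 2 higher (background 1.15%). Of the 200 chosen without saline 3, 0 were lower (background 0.443%) and 10 were higher (background 1.58%). With all members and 1 array left out, the count of lower members was 20 without saline 1 (background 3.17%), 26 without saline 2 (3.23%), 17 without MCT 1 (3.06%) and 90 without MCT 3 (8.77%). That of higher members was 40 without MCT 2 (background 12.9%), 2 without saline 3 (2.88%), 2 without MCT 3 (3.60%) and 7 without MCT 1 (2.67%).

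All saline arrays are on slide 1, and a fit that takes slide as a block therefore sets MCT 1 alone against them, as does a fit within slide 1. With the block 38 members were lower at an adjusted p below 0.05 (limma; background 1.05%), and within slide 1, where the single MCT array is assumed to vary as the saline ones do, 37 were lower (background 1%). In neither fit was a member higher (background 0.106% and 0.629%). These counts describe 1 MCT array.

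Among members whose groups did not overlap, the smallest p above saline belonged to ASCRPR006460 and ASCRPR003378. ASCRPR006460, rank 138 in saline, gave 3868, 2377 and 2324 units in saline and 5253, 5334 and 7372 units in MCT lungs, so that even the unscaled signals of the groups lay apart. It moved up to ranks 19, 43 and 28 on MCT 1 to 3. The scaled log2 means were 4.99 ± 0.37 and 6.88 ± 1.02 (SD, n = 3 each), which is 1.89 ± 0.50 (SE) apart or 3.71-fold (limma adjusted p = 0.32, range over all settings 0.044 to 0.79). It passed in 1 setting, without MCT 2, with a limma adjusted p of 0.044. There it was the 1 member called higher (background 0.833%), and 0 members were called lower (background 0.106%).

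ASCRPR003378, rank 173 in saline, gave 2640, 1802 and 2481 units in saline and 3112, 2993 and 2682 units in MCT lungs. These signals lay apart by a narrow margin, 2640 on saline 1 against 2682 on MCT 3. It moved to ranks 52, 105 and 76, and its log2 difference of 1.16 ± 0.43 (SE) did not pass (limma adjusted p = 0.36, range 0.074 to 0.79).

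Below saline, the smallest p belonged to ASCRPR005541 and ASCRPR002366, both within the set of 68. ASCRPR005541, rank 171 in saline, gave 3475, 2866 and 1217 units in saline and 85.2, 752.2 and 346.4 units in MCT lungs, with saline 3 the lowest of the saline arrays and MCT 1 far below the rest. Its ranks on the MCT arrays were 1882, 448 and 523. MCT minus saline was -2.23 ± 0.64 (SE) in log2, 4.70-fold (limma adjusted p = 0.33, range 0.030 to 0.79). ASCRPR002366, rank 165 in saline, gave 4346, 3217 and 1016 units in saline and 44.9, 631.8 and 313.7 units in MCT lungs, which is the same order of arrays. It had the lowest rank of any member, 3315 on MCT 1. MCT minus saline was -2.75 ± 0.80 (SE) in log2, 6.72-fold (limma adjusted p = 0.33, range 0.028 to 0.79). Both passed within slide 1 and with a slide block, which set MCT 1 alone against saline, and in no other setting. Without MCT 1 their differences were -1.51 and -1.79.

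**Figure D5:**
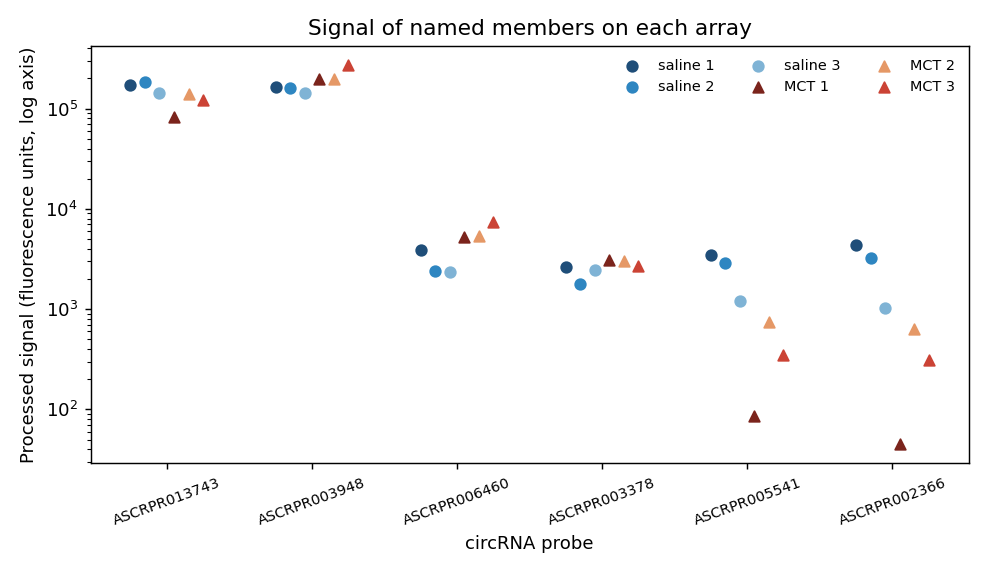
Points show the processed signal (fluorescence units, log axis) of 6 named members on each array, circles for saline and triangles for MCT. The 2 leading circRNAs change order between the groups, ASCRPR006460 and ASCRPR003378 lie above saline on every MCT array, and ASCRPR005541 and ASCRPR002366 lie below, with saline 3 lowest among the saline and MCT 1 lowest among the MCT arrays.

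The places that members left were taken by probes that ranked lower in saline. On MCT 1, 89 other probes were among the 200 brightest, with a median saline rank of 339 and a lowest of 2166. On MCT 2 there were 47 with a median of 261, and on MCT 3 there were 75 with a median of 339. They held 10.1%, 3.90% and 8.68% of the signal on MCT 1 to 3, and 15 of them were shared by all 3 MCT arrays. When the rule was turned around and 200 probes were chosen on the MCT arrays, 137 were also members. These 200 held 43.7%, 47.1% and 43.6% of the signal on the saline arrays and 58.3%, 47.9% and 66.4% on the MCT arrays. Which group chooses thus moves the difference in share, from 3.67 to 12.7 percentage points.

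The limit of 200 cut through a dense range of signals. The last members by saline mean were ASCRPR005806 and ASCRPR010872, with geometric means of 1900 and 1897 units, and the first probes left out were ASCRPR006328 and ASCRPR007585, with 1894 and 1887 units. The last of these, ASCRPR007585, gave 2925, 2825 and 814 units on saline 1 to 3, and 30.8, 418.4 and 298.9 units on MCT 1 to 3. With 100 members in place of 200, 28 (28%) were lower and 4 (4%) higher by the looser criterion, and with 400 members 110 (27.5%) and 26 (6.5%), where the backgrounds are 6.64% lower and 4.9% higher as for the 200.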

How the data were processed

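Total RNA was treated with RNase R, which digests linear RNA, and labelled with a fluorescent dye by random priming, per the labels' protocols. Per the file headers, the scanner software was Agilent Feature Extraction, version 11.0.1.1, and the deposited intensity is a background-subtracted signal with no scaling between arrays. The authors' deposited table was used as an alternative only. The authors' deposited values are log2 (column medians 6.06 to 6.08, Spearman's rho with the scanner values 0.979 to 0.998 across probes), not centred and in the scanner's direction. The submitters' processing notes name limma without saying at which step, and the background treatment and normalization of these values are not given in the sources used here.

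Spots marked as outliers (1 to 6 circRNA spots per array) were left out. Shares and ranks used the signal as deposited. For tests, each array's 75th percentile over 14227 probes was subtracted from log2 signals, and the groups were set against each other in R 4.3.3 using limma 3.58.1 (lmFit, eBayes, Benjamini-Hochberg) over 11280 circRNAs well above background on at least 3 arrays. The number of arrays limits the precision. The code was tested on simulated data. Named were the 10 brightest members, in each direction the 2 with the smallest p without overlap, and 2 on either side of the limit. Members and lists were chosen with earlier results of these data known. Alternatives covered the signal, scaling, filter, variance prior, blocks, choice of members and left-out arrays. Slide 1 holds 4 arrays of both groups. The main fit did not pair the samples by replicate number. Deviations of same-numbered arrays correlated at -0.23, -0.36 and -0.45.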

Additional observations from a re-analysis of the deposited data

How the results depend on the processing

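The difference in the members' share of signal, 3.67 points, was -3.72 with normexp and quantile normalization, -4.47 in the authors' table, 1.02 from median spot signals without background subtraction and 12.7 for probes chosen on the MCT arrays, a choice added after seeing the data, and ran from -0.49 to 6.66 with 1 array left out. For each array's own 200 probes the 8.40 points became -0.066 and -0.15 with these normalizations, under which the arrays' quantiles are nearly equal, 4.92 from median spot signals, and 4.04 to 13.1 with 1 array left out. Members chosen by another mean, or with an array held out, do not bear on it. The change in members kept among an array's 200 brightest was -25.2 points. Within slide 1 it was -34.5, and leaving out 1 array gave -34.2 to -20.5. Its sign was negative in every setting tried, but the saline values that chose the members favour that sign. Only a saline array held out of the choice took no part in it. Set against that array alone, the change was -21.3 points for saline 1, -22 for saline 2 and -18.2 for saline 3. On the saline arrays 90% of members were kept, 79% on saline 3 when it was held out, and 89% to 95% with 1 array left out.

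No member was called in either direction (limma adjusted p below 0.05) except 38 lower with slide as a block, 37 lower within slide 1 and 0 to 1 higher with 1 array left out. By the looser criterion, against 11 higher and 58 lower, and with the share of all tested circRNAs called in the same setting in parentheses, higher counts were 0 without scaling (0.417%), 24 with normexp and quantile normalization (2.94%), 19 in the authors' table (5.05%), 1 with the trended and robust prior (5.17%), 17 within slide 1 (8.13%), 3 and 2 with saline 1 and saline 2 held out (1.44% and 1.15%), 4 of 100 and 26 of 400 members (4.9%), and 2 to 40 with 1 array left out (2.67% to 12.9%). Lower counts were 89 with slide as a block (8.21%), 93 within slide 1 (12.1%), 0 with saline 3 held out (0.443%), 28 of 100 and 110 of 400 members (6.64%), and 17 to 90 with 1 array left out (3.06% to 11.2%). Lower counts were also 86 without scaling (13.5%), 70 with normexp and quantile normalization (3.17%) and 76 in the authors' table (5.33%). Quantile normalization alone gave 14 higher (5.22%) and 72 lower (6.52%). The trended and robust prior gave 46 lower (6.66%). With 1 array left out, the ranges of counts and of shares were taken separately, so their ends need not belong to the same setting. A replicate block, on numbers that the labels tie to no shared litter or day, gave 8 higher (3.26%) and 60 lower (5.20%). At the adjusted threshold it called 0 members, and 0.16% of all tested circRNAs higher and 0.106% lower.

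The median difference of the 10 brightest, 0.74, was 0.33 to 1.06 with 1 array left out and turned to -0.058 without scaling, -0.034 with quantile normalization, -0.097 with normexp and -0.089 in the authors' table. Except where a setting's construction shows it, the cause was not tested. All members lay well above background on each array.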
